A study of Danio rerio with 12 samples.

Results

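The comparison described here is light against darkness in the subjective day of the zebrafish pineal gland. It rests on 6 of the 12 arrays of a study of light and gene expression in that gland, chosen by their labels: the 3 light and the 3 dark arrays of CT2, CT6 and CT10, where CT is circadian time in hours from subjective dawn. Each array was a 1-colour Affymetrix zebrafish array and held RNA from a pool of 12 glands, so each time and treatment is 1 pool with no repeat, and single fish cannot be told apart. All pools came from adult males and females, aged 0.5 to 1.5 years, of the line Tg(aanat2:EGFP)Y8, in which regulatory regions of aanat2 drive EGFP in the pineal so that the gland could be seen under the microscope; light and dark groups carry the transgene alike. All fish had been raised under 12 h of light and 12 h of darkness and moved to constant darkness at the end of the preceding day. Dark pools stayed there until sampling, and for light pools the darkness was broken, before sampling, by a single pulse of 12 W/m2 that lasted 1 h. The other 6 arrays, 3 light and 3 dark pools of subjective night (CT14, CT18 and CT22), enter below for the spread they add to the test and where day is compared with night.

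The fish pineal gland senses light directly and carries its own circadian clock. Its cells resemble photoreceptors, release melatonin at night through the enzyme encoded by aanat2, and in zebrafish light acts on the clock in part by raising transcripts of clock repressors such as per2. In subjective day the fish would normally be in light, so a pulse at these times returns an illumination that constant darkness had withheld.

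The labelled tissue was checked against genes of pineal photoreceptor cells. On each of the 6 arrays exorh, the pineal opsin gene, lay at or above the 94.0th percentile of all probe sets (signals of 944 to 1940), crx, a photoreceptor transcription factor, at or above the 98.2th (2397 to 4327), and tph2, for a serotonin-forming enzyme, at or above the 99.5th (4901 to 5847). Gnat2 lay at or above the 94.3th percentile (926 to 1427) and aanat2 at or above the 89.7th (586 to 4681). Otx5, another pineal transcription factor, was lower in rank, at or above the 66.7th (153 to 270). Asmt and bsx had 0 probe sets under a single gene symbol and were not analysed here. All values are the deposited signals, which have no unit beyond the authors' scaling to a common mean.

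The light and dark arrays of subjective day also differed in control probe sets, of which the spike-ins do not come from the gland. The mean log2 signal of 18 spike-in probe sets, for bacterial and phage transcripts added before hybridisation, was 9.60 to 9.83 on the 3 dark arrays and 10.30 to 10.60 on the 3 light arrays, a difference of 0.71 ± 0.21 (SD, n = 3 pairs) or 1.63-fold. The 3' end of the GAPDH control probe set, which reads a transcript of the fish itself, ran the other way. It was at 12.53 to 12.86 in the dark and 11.47 to 11.79 in light. Its 3' minus 5' difference, a measure of RNA quality and amplification, was 5.67, 5.31 and 5.32 in the dark at CT2, CT6 and CT10 and 4.22, 5.78 and 5.96 in light, so the light pool of CT2 was lowest and the other light pools highest. That measure does not split light from dark, but no array of subjective day breaks the split in spike-in mean and in 3' GAPDH signal. No label names a batch, so an array class and light cannot be told apart at CT2, CT6 and CT10. No comparison within the day tests the part of the class in the results below.

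**Figure D1:**
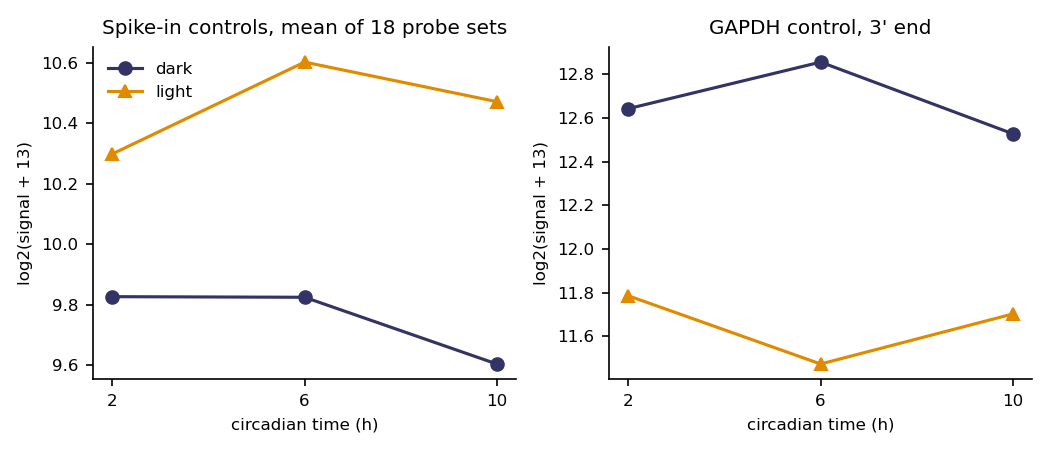
Left, mean log2(signal + 13) of 18 spike-in probe sets against circadian time in hours; right, the same scale for the 3' GAPDH control probe set; 1 point per array, circles for dark and triangles for light pools. Spike-ins are higher on all 3 light arrays (10.30 to 10.60 against 9.60 to 9.83), and the GAPDH control is lower on all 3 (11.47 to 11.79 against 12.53 to 12.86).

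Light in subjective day was followed by higher transcript levels of the transcription factor genes jun and klf9, of the glycolytic regulator gene pfkfb4b and of the sterol brake insig1, and by lower levels of the signalling brakes dusp1 and sik1 and of the transcription factor gene etv5b. In all, 10 probe sets rose and 8 fell among 9301 tested (0.194%; 0.108% higher and 0.086% lower), by 2.53-fold to 5.38-fold upwards and 2.58-fold to 4.82-fold downwards. Of these, 6 of the risen and 4 of the fallen probe sets carry 1 gene symbol. In pooled glands fewer cells of a type and less RNA per cell cannot be told apart. The difference is the mean of the 3 within-time light minus dark differences of log2(signal + 13), given ± SE from limma with n = 3 pairs, and a probe set is said to rise or fall when its Benjamini-Hochberg adjusted p is under 0.05. All 18 had the same sign at CT2, CT6 and CT10, and in 16 of 18 the 3 light values did not overlap the 3 dark ones (9 higher, 7 lower). Such non-overlap was common over all probe sets (10.8% with light above and 10.2% with light below dark). The count of calls rested on every pair: without CT2 or without CT6 limma called 0 probe sets (861 and 473 at an unadjusted p under 0.05), and without CT10 it called 5 (pfkfb4b, klf9, jun and 1 probe set without a symbol higher, dusp1 lower). All 18 kept their direction in each of these, which their equal signs at the 3 times had fixed in advance.

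The number of calls also depended on the other arrays. With the 6 day arrays alone 48 probe sets were higher (0.516%) and 23 lower (0.247%), and these 71 included all 18. Without the night pair of CT22 there were 35 and 16. With each array centred on its median, which moved the median difference of all probe sets from 0.01 to -0.09, 3 were higher and 6 lower, against 10 and 8. With spike-in level as a covariate limma called 0 (972 at an unadjusted p under 0.05), and all 18 kept their direction with a median size of 1.62 log2 against 1.69. With spike-in class as a covariate, which rests on the dark array of CT22, 51 were higher (0.548%) and 1 lower (0.0108%), and sik1 was the 1 of the 18 that was called.

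Pfkfb4b encodes a bifunctional enzyme that sets the level of an activator of glycolysis. Its signal in the dark was 710 at CT2, 524 at CT6 and 1190 at CT10, and in light it was 5547, 2817 and 4623. Every light pool stood above every dark one, with the widest gap at CT2. The difference was 2.43 ± 0.26 log2, or 5.38-fold (adjusted p = 0.00739 by limma), the largest among the named genes.

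Jun encodes a subunit of the AP-1 transcription factor and is an early-response gene in many tissues. Dark pools had signals of 184, 158 and 194 at CT2, CT6 and CT10, and light pools had 680, 886 and 805. The dark level hardly moved over the day, and the groups were far apart at all 3 times. This gave 2.07 ± 0.20 log2, or 4.19-fold, with the smallest adjusted p in the table (0.00535 by limma).

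Klf9, a Krüppel-like transcription factor gene that responds to glucocorticoids in vertebrates, gave 206, 165 and 732 in the dark and 1228, 865 and 1580 in light. The dark pool of CT10 was already high, and the difference there (1.096) was smaller than at CT2 (2.50) and CT6 (2.30). On average klf9 rose by 1.97 ± 0.28 log2, or 3.91-fold (adjusted p = 0.01996 by limma).

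Insig1 encodes a membrane protein of the endoplasmic reticulum that restrains sterol synthesis. In the dark its signal lay at 225, 236 and 256, and in light at 579, 880 and 989. The dark values were close together and the light values lay above them all. Insig1 rose by 1.69 ± 0.25 log2, or 3.22-fold (adjusted p = 0.0281 by limma).

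LOC567909 and si:ch211-195b15.8, which the annotation gives no descriptive name, rose as well. LOC567909 read 346, 513 and 239 in the dark against 1177, 2094 and 1009 in light (1.92 ± 0.27 log2, 3.78-fold). Si:ch211-195b15.8 read 462, 255 and 359 against 1159, 955 and 1235 (1.64 ± 0.20 log2, 3.11-fold). For both, the 3 day light pools exceeded all dark pools of the day and also the 3 dark pools of the night. The same held for jun and pfkfb4b, but not for klf9 and insig1, whose dark levels at night reached 972 (CT18) and 611 (CT14).

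Dusp1 encodes a phosphatase that inactivates MAP kinases. Dark pools gave 4371, 4901 and 2563 and light pools 784, 632 and 949, so that the lowest dark value was above the highest light value. It fell by 2.27 ± 0.30 on the log2 scale, 4.82-fold lower in light (adjusted p = 0.0184 by limma), with its smallest difference at CT10 (-1.42).

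Sik1, a kinase gene that cAMP induces in many tissues and whose product restrains CREB-driven transcription, stood at 5417, 6216 and 6148 in the dark. After light it stood at 1353, 789 and 1740. The dark level was nearly flat and the light level was lowest at CT6. Sik1 fell by 2.25 ± 0.30 on the log2 scale, 4.77-fold lower in light (adjusted p = 0.0184 by limma).

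Etv5b, an ETS transcription factor gene that acts downstream of FGF signalling in zebrafish embryos, gave 576, 774 and 545 in the dark and 252, 244 and 170 in light. The groups did not overlap. It fell by 1.46 ± 0.20 on the log2 scale, 2.75-fold lower (adjusted p = 0.0184 by limma). The fourth, a gene without a descriptive name (wu:fk54g04 among its RefSeq synonyms), gave 2355, 3596 and 4886 in the dark and 1178, 1083 and 1734 in light, and fell by 1.40 ± 0.20, 2.64-fold lower. For each of the 4 fallen genes the 3 day light arrays lay below all 6 dark arrays of the series; over all probe sets 6.1% lay wholly above or below these 6.

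Below the threshold but next in order of p among lower genes stood tfdp1b, for a partner of E2F factors (-1.25 ± 0.22 log2, adjusted p = 0.0587 by limma), and slc25a20, for the carnitine carrier of the mitochondrial membrane (-1.31 ± 0.24, adjusted p = 0.0701). Both were past the threshold with the 6 day arrays alone (adjusted p = 0.0199 and 0.0320).

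Of the 8 called probe sets without a single gene symbol, 4 rose and 4 fell. A risen one read 330, 717 and 1274 in the dark and 1055, 3046 and 2498 in light, and it is the one risen probe set whose groups overlapped. A weak risen one read 37.8, 26.1 and 19.1 in the dark and 123, 115 and 126 in light. Its day dark values lay below the cut of 58.3, and it was kept by a mean that includes the light arrays. The fallen probe set with the widest difference of this kind read 798, 753 and 662 in the dark and 140, 205 and 183 in light, a 4-fold difference. The one fallen probe set whose groups overlapped read 1934, 4785 and 4066 in the dark and 1060, 1970 and 1033 in light.

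**Figure D2:**
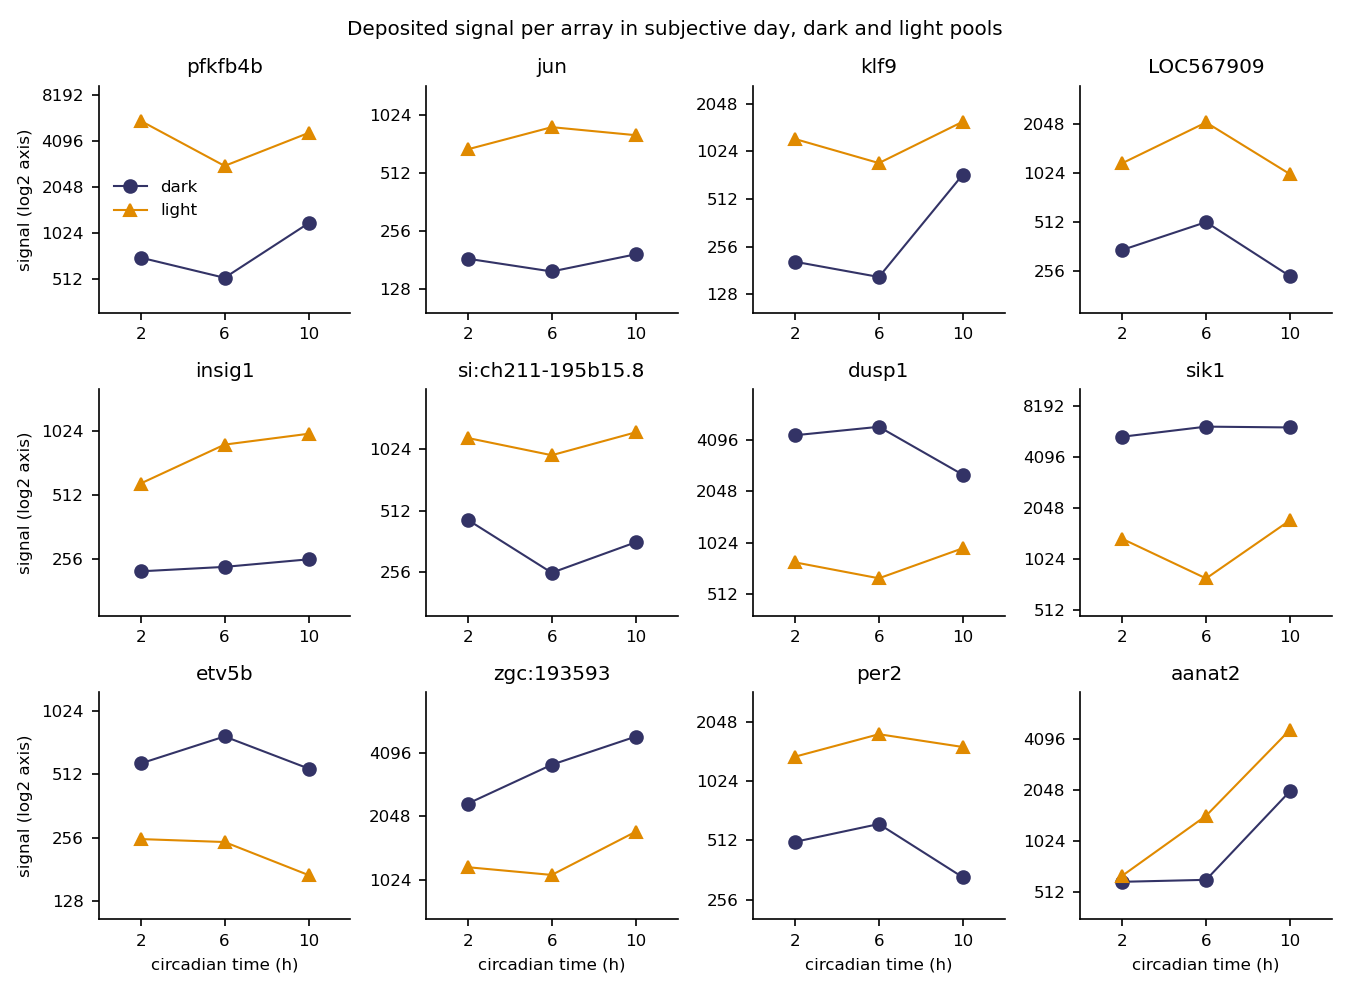
Deposited signal (log2 axis) against circadian time in hours for the 10 genes called in subjective day and for per2 and aanat2, which were not; circles are dark and triangles light pools, 1 array each. The light pools of jun (680 to 886) lie above its dark pools (158 to 194) and those of sik1 (789 to 1740) below its dark pools (5417 to 6216), while aanat2 differs little at CT2 (586 and 636).

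The light differences were compared with those in subjective night, from pools that do not enter the day means but do lend their spread to the test that called the 18. Of the 18 called probe sets, all 18 had the same sign in the night mean, against 64.1% of all probe sets and 72.7% of those with 1 sign at the 3 day times. The median of the 10 risen ones was 1.72 log2 by day and 1.18 by night, and that of the 8 fallen ones -1.52 and -1.28. The 18 were chosen for their day difference, so smaller values at night would be found even with equal responses. At CT22, the time at which both arrays were of the higher spike-in class, all 18 also had the sign of the day, with medians of 0.84 and -1.35. The share of all probe sets with the sign of the day at CT22 was not counted, and the part of the array class was not tested.

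No probe set passed the test of night against day by limma (0 of 9301; 296, or 3.18%, at an unadjusted p under 0.05), so no light response was shown to be particular to subjective day. The smallest p values among genes belonged to etv5b, pole4 and igf1rb. Etv5b differed by -1.15, -1.62 and -1.61 at CT2, CT6 and CT10 and by -0.28, -0.02 and -0.30 at CT14, CT18 and CT22 (night minus day 1.25 ± 0.28, adjusted p = 1.00 by limma). Pole4, for a small DNA polymerase subunit, was at -0.79 ± 0.30 by day and 1.02 by night. Its signals were weak, at 19.3 to 121 in the day pools and 42.9 to 185 in the night pools. Igf1rb, an insulin-like growth factor receptor gene, was at 0.92 ± 0.26 by day and -0.57 by night. Insig1, singled out after its values were seen, was at 1.69 by day and 0.34 by night; its dark signal was 225 to 256 by day and 354 to 611 by night. Without the pair of CT22, and with spike-in class as a covariate, 1 probe set passed the night against day test, the same one in both (-3.54 log2 for night minus day), and it has no gene symbol. Both fits set CT14 and CT18 against the day and give the same difference by design, so they are not separate results.

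**Figure D3:**
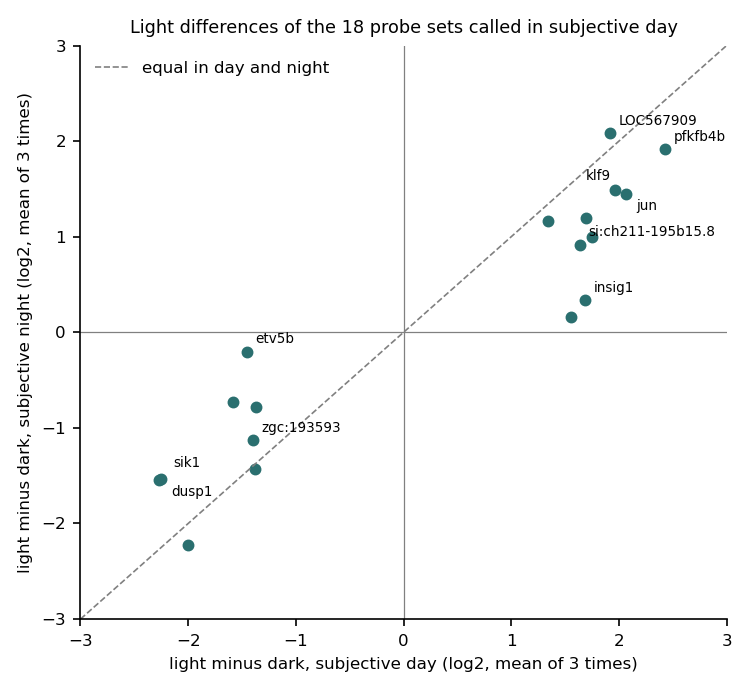
Light minus dark (log2) of the 18 probe sets called in subjective day, as the mean of CT2, CT6 and CT10 (x axis) against the mean of CT14, CT18 and CT22 (y axis); each point is 1 probe set and the dashed line marks equal differences. All points lie in the quadrants of equal sign, and insig1 (1.69 and 0.34) and etv5b (-1.46 and -0.20) lie far from the line. The probe sets were chosen by their day values.

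Gene lists were read over 6025 genes, 1 probe set each, of which 6 rose (0.0996%) and 4 fell (0.0664%). The median difference of all genes was -0.01 log2, with 2929 positive and 3096 negative. At all 3 times 1078 were higher and 1204 lower. The light values of 576 (9.56%) lay wholly above and of 690 (11.5%) wholly below the dark ones. Members at the ends of a list that are named besides the called ones, or besides the pair with the smallest p, were singled out after their values were seen.

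Of the clock repressors, none of the 7 kept genes of 11 measured passed the threshold. Per2, whose transcript light raises in many zebrafish tissues, read 503, 620 and 332 in the dark and 1364, 1775 and 1528 in light. The 3 day light pools were above all dark pools of the series, and the widest gap was at CT10. Its difference of 1.69 ± 0.29 log2, or 3.23-fold, just missed the threshold (adjusted p = 0.0536 by limma) and passed it with the 6 day arrays alone (adjusted p = 0.00584).

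Cry1a, a light-inducible cryptochrome repressor gene of zebrafish, read 101, 87.7 and 99.4 in the dark and 132, 159 and 154 in light (0.57 ± 0.26, adjusted p = 0.478 by limma); the groups did not overlap. Bhlhe40, an E-box repressor gene, was far higher early than late in both groups, with 3102 at CT2 and 119 at CT10 in the dark and 5504 and 253 in light (0.78 ± 0.30, adjusted p = 0.373). Bhlhe41 and cry2 were at -0.15 and -0.20. The median of the list was 0.57 log2, but 0.02, 0.16 and 1.01 at CT2, CT6 and CT10, and without CT10 it was 0.01. With spike-in level and class as covariates it was 0.018 and -0.086, and of all 30 lists these covariates moved 14 and 23 medians by more than the spread of the 3 times. The gap between times was wide for single members too; ciarta, for one, was at -0.29, 0.17 and 1.86.

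Of the clock activators and nuclear receptors, 4 of 8 kept genes (10 measured) were positive, with a median of 0.03, and bmal1b (-0.40 ± 0.35) and nr1d2b (0.26 ± 0.23) had the smallest p. The 3 kept genes of the PAR bZIP and nfil3 factors (4 measured), activators and repressors that share the D-box, were positive at all 3 times. Nfil3-6 read 1359, 1436 and 464 in the dark and 4231, 2470 and 1333 in light, where the last light value lies below the first dark values (1.30 ± 0.22, adjusted p = 0.0520 by limma; 0.0199 with the 6 day arrays alone). Nfil3-5 was at 1.50 ± 0.39, with 2.73 at CT2 and 0.90 and 0.88 later. Tefa was at 0.59. Of 13 clock kinase and ubiquitin ligase genes (14 measured) 11 were positive, within a narrow range of -0.16 to 0.38, gsk3ab (0.38) and csnk2a2b (0.27) having the smallest p; the median was 0.10, and 0.00 with arrays centred on their medians.

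Genes of melatonin synthesis and pineal identity held no call. Aanat2, for the enzyme that times melatonin, read 586, 602 and 2022 in the dark and 636, 1445 and 4681 in light. The pools were alike at CT2, and light was higher at CT6 and CT10, with the highest level of both groups at CT10. The mean difference was 0.86 ± 0.37 (adjusted p = 0.442 by limma). Tph1a, for an enzyme that starts serotonin synthesis, read 1060, 1354 and 2258 in the dark and 901, 877 and 1349 in light (-0.53 ± 0.21, adjusted p = 0.399). Tph2 hardly moved, at 5611, 5644 and 4901 against 5847, 5731 and 4993. Of the 14 kept genes (19 measured) 9 were negative (median -0.17, and 0.01 without CT10).

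Phototransduction genes, which carry the signal from opsin to membrane current, split 13 positive to 9 negative among 22 kept (28 measured), with no call. Exorh read 944, 1193 and 1337 in the dark and 1940, 1587 and 1687 in light (0.59 ± 0.35, adjusted p = 0.6001 by limma). The gap narrowed from 1.03 at CT2 to 0.33 at CT10. Pde6ha, for an inhibitory subunit of cone phosphodiesterase, had the smallest p (0.75 ± 0.20, adjusted p = 0.209), followed by gngt2a, for a cone transducin subunit (-0.36 ± 0.20). Of the retinal rod and cone markers (9 of 14 kept) 5 were positive and 4 negative, with a median of 0.045. Smallest in p were opn1lw1, the red cone opsin gene, at -0.56 ± 0.17 and nr2e3 at -0.51 ± 0.28.

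Among 35 kept AP-1, Egr and other early transcription factor genes (46 measured) 2 rose, jun and klf9, and none fell. The other members lay on both sides of 0, 16 positive and 17 negative, and the median of all 35 was 0.01. At the lower end fosab, the c-Fos gene, was at -1.13 ± 0.42 (adjusted p = 0.360 by limma), with a dark signal of 159 at CT2 and 1531 at CT10. Hey1, a Notch target, was at -0.99 ± 0.25 and did not overlap between groups (180, 214 and 245 in the dark, 111, 97.8 and 90.8 in light). Egr1 was at -0.08 and junba at -0.11, while egr2a was at 0.88 ± 0.32.

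Of 23 kept genes of signalling brakes (28 measured) 2 fell, dusp1 and sik1, and 14 were negative (median -0.21). Light values lay wholly below dark ones in 6 of the 23 genes and wholly above in 1, against 11.5% and 9.56% of all genes. Ackr3b, a scavenger receptor gene for chemokines, was at -1.50 ± 0.33 (adjusted p = 0.122 by limma). Dusp5 (-0.78), spred1 (-0.70) and spry4 (-0.52), which restrain receptor tyrosine kinase signalling, did not overlap between groups either. Sik2b and sik3, relatives of sik1, were at 0.16 and -0.21.

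Of 17 kept glucocorticoid-linked genes (24 measured) 1 rose, klf9. Fkbp5, an immunophilin of steroid receptor complexes, read 329, 373 and 780 in the dark and 1540, 1221 and 1354 in light (1.55 ± 0.26, adjusted p = 0.0520 by limma), with a dark level that was highest at CT10, as for klf9. Tsc22d3 was at 0.44 and cebpb at -0.81, and the median was 0.01.

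The glycolysis and sterol lists had 1 call each. Of 32 kept glycolysis and glucose transport genes (46 measured) pfkfb4b rose and 22 were negative (median -0.10); the next highest was pdk2b at 0.52. Of 32 kept sterol and fatty acid genes (38 measured) insig1 rose, and the others ran from slc25a20 (-1.31) to osbpl7 (1.62 ± 0.34, adjusted p = 0.113 by limma), with hmgcs1, an early enzyme of sterol synthesis, at 0.62. Of 32 kept antioxidant and glutathione genes (37 measured) none was called and 26 were negative (median -0.23; -0.33 with median centring). Gpx1b, a glutathione peroxidase gene, read 1248, 1403 and 669 in the dark and 582, 436 and 407 in light (-1.15 ± 0.24, adjusted p = 0.102). Prdx3, a mitochondrial peroxiredoxin gene, was at -0.84 ± 0.20 (adjusted p = 0.173), and keap1a, for the sensor that restrains Nrf2, at 0.92 ± 0.23.

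DNA repair, chaperone and cell cycle lists held no call. Cry5, the (6-4) photolyase gene, read 259, 155 and 162 in the dark and 139, 248 and 173 in light (-0.04 ± 0.29, adjusted p = 0.982 by limma), and a further kept probe set gave 0.32 ± 0.36. Among 15 kept repair genes (26 measured) ercc3 (-0.75) and mre11a (0.61) had the smallest p. Both were weak, at 37.9 to 137 and 49.5 to 105 in the day pools. Of 41 heat shock and chaperone genes (46 measured) 19 were positive, led in p by dnajb1b (-0.66) and bag2 (0.77). Of 26 endoplasmic reticulum stress genes (28 measured) 17 were positive, led by syvn1 (0.65) and derl2 (0.51), with a median of 0.09 that turned to -0.005 with arrays centred on their medians. Of 36 cell cycle genes (62 measured) 22 were negative, led by tfdp1b (-1.25) and ccng2 (-0.96).

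Subunits of large complexes had mixed signs, as had all genes (2929 positive and 3096 negative). Of 69 ribosomal protein genes, all kept, 30 were positive and 39 negative, with no call and a range of -0.90 (rps4x) to 1.42 (rps10). Rpl10 read 6541, 8057 and 7709 in the dark and 4000, 4045 and 4342 in light (-0.84 ± 0.19, adjusted p = 0.134 by limma and 0.0287 with the 6 day arrays alone), and rpl10a was at -0.77 ± 0.17. Rps10 read 277, 296 and 324 in the dark and 686, 908 and 883 in light (1.42 ± 0.36, adjusted p = 0.184 and 0.00911 with the 6 day arrays alone). With the day arrays alone 3 of the 69 were called (rpl10 and rplp0 lower, rps10 higher). Light values lay wholly above the dark in 14 and wholly below in 16 of the 69, against 9.56% and 11.5% of all genes. At all 3 times 19 of the 69 were higher and 26 lower, against 17.9% and 20% of all genes. The likeness to all genes is thus one of mean signs only. Of 86 respiratory chain genes and their assembly factors (90 measured) 48 were negative, with atp5f1c (-0.75) and ndufa9a (-0.94) first in p. Of 38 proteasome genes (40 measured) 20 were negative, with psmd6 (-0.63) and psmb8a (0.72) first. Psmb8a was weak, at 37.8 to 72.4 in the dark and 81.6 to 92.5 in light, and its light values helped to keep it.

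**Figure D4:**
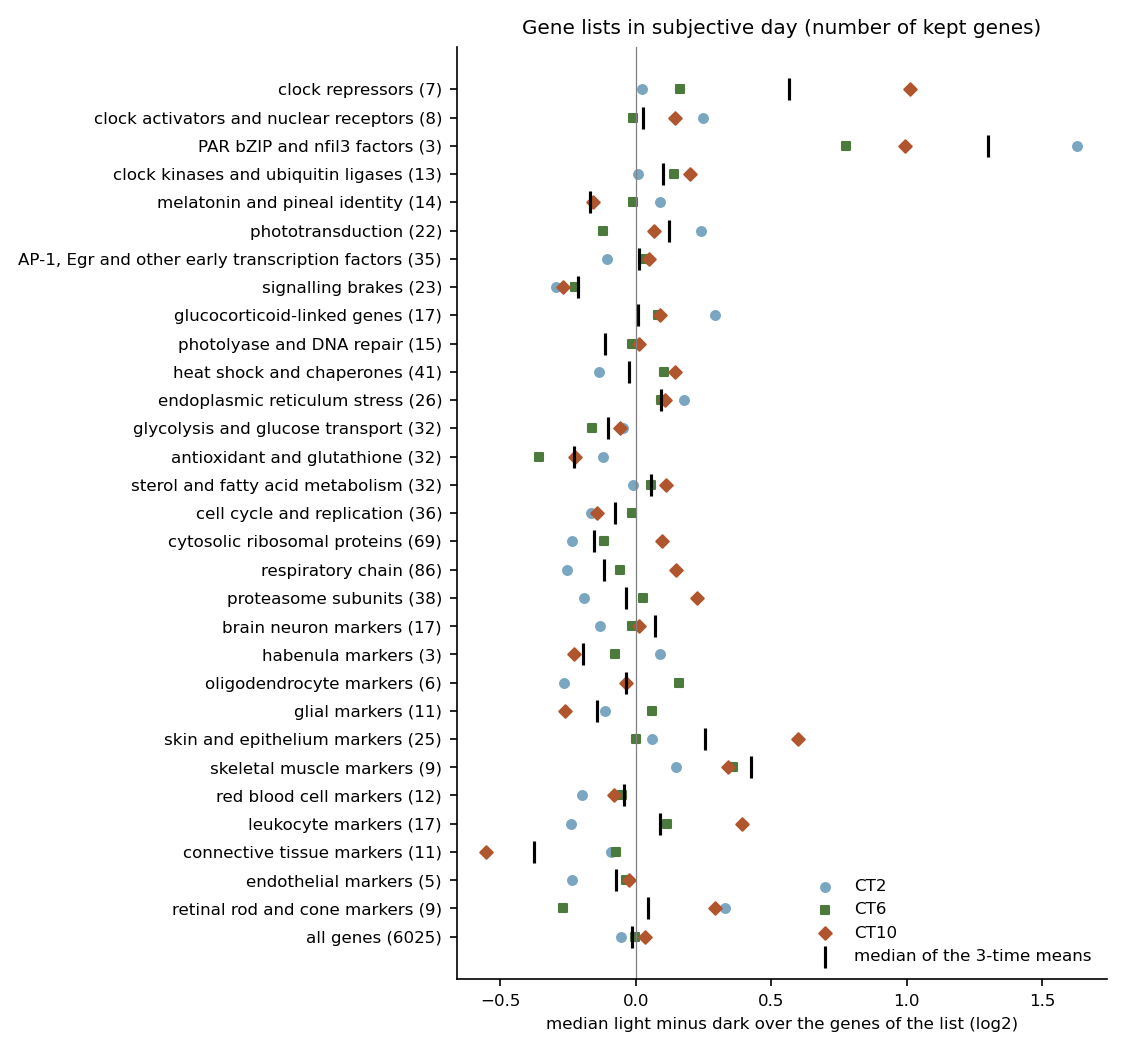
Median light minus dark (log2) over the kept genes of each list; coloured symbols give CT2, CT6 and CT10 and the black bar the median of the 3-time means, with the number of genes in parentheses. The clock repressors run from 0.02 at CT2 to 1.01 at CT10, while the median of all 6025 genes stays between -0.05 and 0.03.

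Markers of other tissues were measured because a dissected pool can hold neighbouring cells. No marker of another tissue passed the threshold, but with spike-in class as a covariate 3 brain neuron markers did. Over the 9 kept skeletal muscle genes (25 measured) the summed signal was 716 to 843 in the dark and 975 to 1039 in light. These sums do not overlap, but 5 of the genes were positive and 4 negative (median 0.42, lowest -0.106). The 5 positive genes were higher in light at all 3 times, against 17.9% of all genes, and 0 were lower at all 3. In 4 genes the light values lay wholly above the dark, against 9.56% of all genes. Acta1a (1.15 ± 0.31) and mb (0.55) were first in p. Genes were kept by a mean that includes the light arrays. Acta1a read 21.3 to 95.9 in the dark pools of the series and 93.2 to 212 in the light pools. With a cut of 58.3, its light values helped to keep it, so the sums and the median are not free of that choice. The median was 0.227 without CT6, 0.253 without CT10, 0.561 without CT2, 0.270 with a pseudocount of 50, 0.269 with the 60th percentile filter and 0.027 with none, and 0.144 and -0.113 with spike-in level and class. Over the 5 endothelial genes (10 measured) it was 1347 to 1772 in the dark and 1164 to 1357 in light, lower in light in every pair though the groups overlap, and kdrl, a vascular growth factor receptor gene, was at -0.97 ± 0.21 (adjusted p = 0.120 by limma). The endothelial median was -0.07, but -0.20 without CT10, -0.30 without CT6, -0.56 with spike-in level and -1.0 with spike-in class. The part of the muscle and endothelial differences in the calls above was not tested.

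The sums of the next 3 lists overlapped between dark and light, and each has 1 pool at CT10 that stands apart. The skin and epithelium genes (25 of 33 kept; krt15 at 0.96 and ppl at 0.91 first) summed to 5572 to 10045 in the dark and 4759 to 15791 in light, the top value at CT10. The leukocyte genes (17 of 22; ptprc 0.52, apoeb 0.48) summed to 5843 to 6662 and 4826 to 9767, again highest in the light pool of CT10. The connective tissue genes (11 of 15; col1a1a -1.66, prrx1a -0.51) summed to 9802 in the dark pool of CT10 and to 2502 to 2968 in the 5 other pools, lower in light in every pair; col1a1a alone read 4016 there and 174 to 268 elsewhere. Without CT10 the medians of the skin and connective tissue lists were 0.05 and -0.02, against 0.25 and -0.38.

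Neuronal sums were close in dark and light, glial sums were lower in light in every pair, and those of the habenula did not overlap. Brain neuron genes (17 of 19 kept; atp1a3a -0.70, calb2a 0.47) summed to 14730 to 17064 in the dark and 15252 to 16155 in light, with a median difference of 0.07 that was 0.83 with spike-in class and turned to -0.03 with median centring and to -0.07, -0.06 and -0.03 without CT2, CT6 and CT10. Glial genes (11 of 12, with sox9b at -0.92 and glula at 0.48) summed to 13192 to 14758 and 12785 to 13649. The glial genes did not move as 1 group: 4 were positive and 7 negative. Light values lay wholly above the dark in 3 of the 11 and wholly below in 2, against 9.56% and 11.5% of all genes. Oligodendrocyte genes (6 of 6; sox10 -0.39, mbpb 0.21) gave 1481 to 1906 and 1310 to 1621. Habenula genes (3 of 3, with chrnb3a at -0.20 and kctd12.1 at -0.19) gave 519 to 685 and 443 to 503. All 3 were negative in the mean of the times, but their median at CT2 was 0.090. Dark and light values did not separate for any single habenula gene. Red blood cell genes (12 of 15; cahz -0.69, klf1 -0.66) gave 6452 to 8465 and 5420 to 8929, and retinal genes 22782 to 26719 and 21651 to 27897. The red blood cell genes were split, 6 positive and 6 negative, with a median of -0.042.

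**Figure D5:**
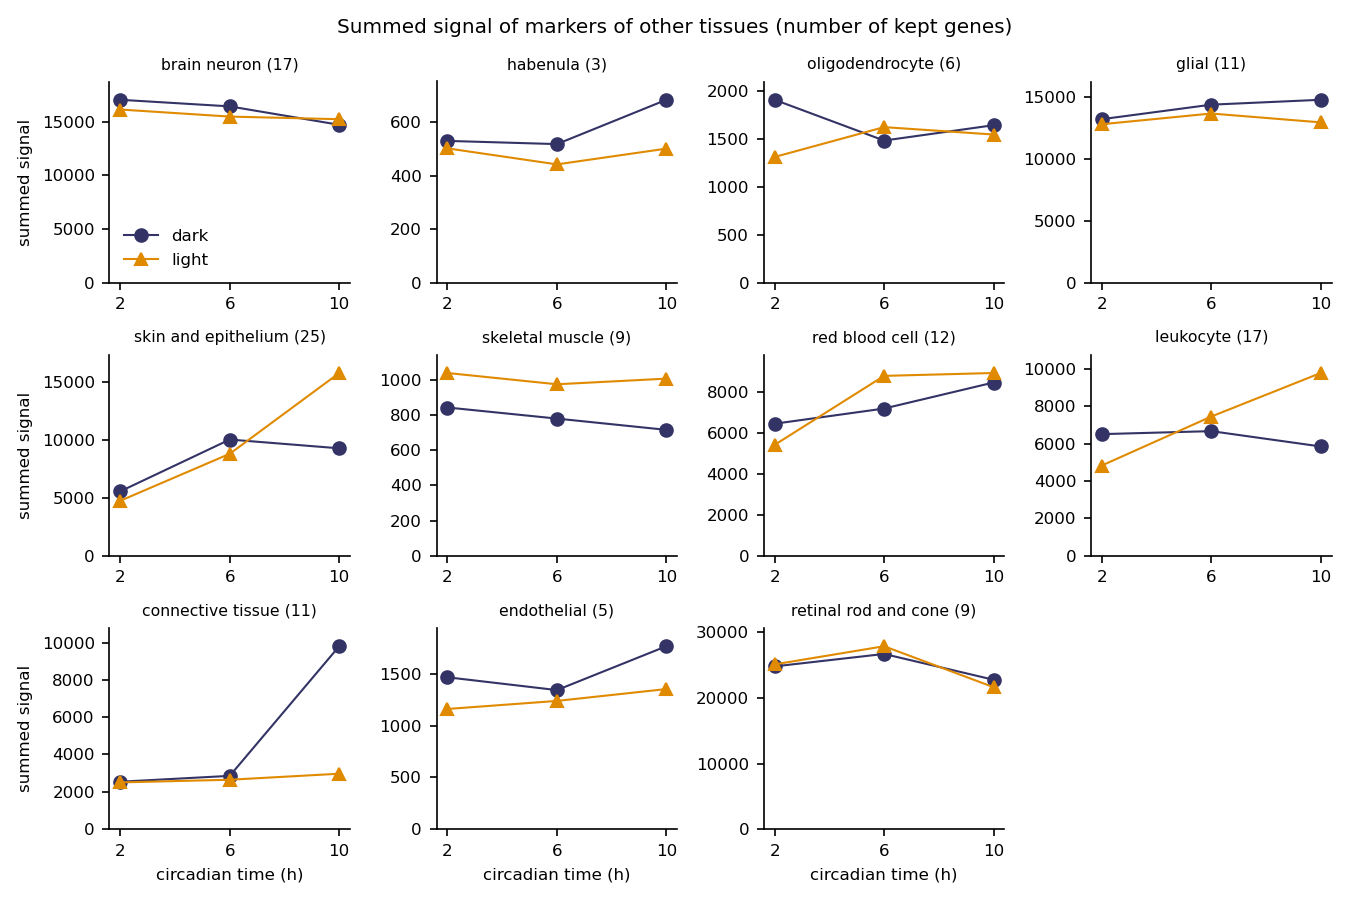
Summed deposited signal of the kept markers of other tissues (y axes start at 0) against circadian time in hours, circles for dark and triangles for light pools, 1 array each. The dark pool of CT10 stands at 9802 for connective tissue against 2502 to 2968 in the others, and the light pool of CT10 at 15791 for skin.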

How the data were processed

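The authors deposited linear intensities, a signal for every probe set on each array; GCOS and MAS5 are named, without versions, per the submitters' processing notes. The mean without the lowest and highest 2% of probe sets is 200.035 to 200.042 on each of the 12 arrays, so the deposited signals had been scaled; no further scaling was applied. Of 15502 non-control probe sets 10795 carry 1 gene symbol, 135 several and 4572 none; genes are named only from the first. No build is given in the sources used here, so no positions are printed.

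Values are log2(signal + 13), 13 being the 10th percentile of all signals, which understates changes of weak probe sets. Kept were 9301 probe sets for 6025 genes with a mean over all 12 arrays at or above the 40th percentile (6.16, a signal of 58.3). The light arrays enter that mean, so a probe set weak in the dark could be kept through its light values. Limma 3.58.1 in R 4.3.3 fitted all 12 arrays with time as a 6-level block and separate light terms for the 3 day and 3 night pairs (4 residual degrees of freedom; 2 with day arrays alone), eBayes with an intensity trend, two-sided, adjusted by Benjamini-Hochberg over all kept probe sets. The pairing comes from the labels' times; deviations of same-time day arrays correlated with r of 0.12, 0.00 and 0.16. In the fit of all 12 arrays, p-values rest on how light minus dark varied among the 3 day and among the 3 night pairs. With no repeat pool at any time and treatment, spread between pools and change of the light response with circadian time cannot be told apart. The number of arrays limits precision. The fit was tested on simulated data.

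In lists a gene was read from its probe set of highest mean. The genes named were aanat2, exorh, per2, cry1a and cry5; up to 12 called genes each way with 1 sign at the 3 times, filled to 6 by p; called list members or the 2 with the smallest p (klf9, insig1, pfkfb4b and others count under both); and the 3 genes first in the night against day test. Members, lists and rules were chosen with earlier results of these data known. Alternatives were day arrays only, no time block, pseudocounts of 1 and 50, other filters, scalings and spike-in covariates, no trend, each pair left out and, added after seeing the data, the CT22 pair left out. A planned description of promoter motifs was not made, since no promoter sequences were used here.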

Additional observations from a re-analysis of the deposited data

Results flagged for a closer look

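For 6 of the named genes all 3 day differences lay on one side of 0 and all 3 night differences on the other. The share of all genes with this pattern was not counted, so the 6 are not shown to exceed it. The night minus day values were 1.82 log2 for pole4, -1.49 for igf1rb, 0.89 for prdx3, 0.81 for gngt2a, -0.75 for syvn1 and 0.51 for chrnb3a. None passed the limma test of night against day (adjusted p = 1.00 for each), and pole4 and igf1rb had been named for their small p in that test. Igf1rb read 126, 153 and 116 in the dark and 261, 257 and 259 in light at CT2, CT6 and CT10, and 140, 206 and 220 against 107, 199 and 81.1 at CT14, CT18 and CT22. Prdx3 lay close to 0 at night, with differences of 0.04, 0.04 and 0.06.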

How the results depend on the processing

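Against 10 probe sets higher and 8 lower in light, the 6 day arrays alone gave 48 and 23, spike-in level as a covariate 0 and 0, spike-in class 51 and 1, median centring 3 higher, no intensity trend 4 and 1, leaving out a day pair 0 to 4 and 0 to 1, and leaving out the pair of CT22 35 and 16. Pseudocounts, filters, quantile normalization and the fit without the time block (no replicate block: 8 and 8, with 11 of the 18 called) stayed within 1.5 times. The night against day count of 0 became 1 with spike-in class and without CT22, which give the same night minus day difference by design. Non-overlapping probe sets, 1009 above and 946 below, became 1632 above with no filter, 633 above with the 60th percentile filter, 642 above and 1436 below with median centring, and 1825 to 2510 and 1632 to 2178 when a day pair was left out, where 2 arrays face 2. The 18 calls kept their direction in every setting that tested them. Where a day pair was left out, their equal signs at the 3 times fixed this in advance. Day arrays alone, no time block, no intensity trend and the CT22 pair left out do not change a difference at all. Among other named genes the sign turned when a day pair was left out for cry5 (-0.378 to 0.361), calb2a (-0.081 to 1.01) and kctd12.1 (-0.336 to 0.090), with spike-in level for atp1a3a (0.082), and with spike-in class for aanat2 (-0.085), exorh (-0.82), bhlhe40 (-0.74), mre11a (-0.69), atp1a3a (1.13), cahz (0.19) and igf1rb (-0.20); apart from the pairs left out, the cause was not tested.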

Other observations

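With the 6 day arrays alone, 22 genes were called that were not called with all 12, and 5 of them are given here, chosen after their values were seen. Actb1, a cytoplasmic actin gene, read 523, 559 and 823 in the dark and 1314, 1386 and 1943 in light at CT2, CT6 and CT10 (1.27 ± 0.23 log2, adjusted p = 0.0587 with all arrays and 0.00962 with the day arrays, both by limma). Cnn2, for a calponin, read 561, 461 and 552 against 1465, 1248 and 1213 (1.30 ± 0.24, adjusted p = 0.0701 and 0.00973 by limma). Tpm4a, a tropomyosin gene, read 217, 184 and 195 against 443, 397 and 401 (1.01 ± 0.27, adjusted p = 0.208 and 0.0380 by limma). For each the 3 day light pools stood above the 3 day dark pools, and the night means were 0.94, 1.17 and 0.86. The summed skeletal muscle markers were at 716 to 843 in the dark and 975 to 1039 in light, with 5 of the 9 genes positive and 4 negative. The 5 positive genes were higher in light at all 3 times, and the lowest of the 9 was at -0.106. The muscle actin gene acta1a was at 1.15 by day and 1.44 by night. It read only 21.3 to 95.9 in the dark pools and was kept with the help of its light values. Its place in the list, and so its share in the muscle sums, thus depends in part on how genes were kept. The signals and differences of acta1a itself do not. The part of the muscle markers in the values of actb1, cnn2 and tpm4a was not tested.

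Pik3r3a, for a regulatory subunit of PI3 kinase, read 214, 157 and 260 in the dark and 1031, 376 and 513 in light (1.45 ± 0.25 log2). Its relative pik3r3b read 1021, 823 and 1300 against 3589, 2081 and 2076 (1.26 ± 0.27). Both differences were widest at CT2, and in neither gene did the groups overlap. Light values wholly above the dark were seen in 9.56% of all genes. With all arrays pik3r3a and pik3r3b missed the threshold (adjusted p = 0.0536 and 0.122 by limma). With the day arrays they passed it (0.0303 and 0.0295).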
